A study of Mus musculus with 6 samples.

Results

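The genes described here are 50 genes of transforming growth factor beta (TGF-beta) and bone morphogenetic protein (BMP) signalling, chosen by gene symbol from the 55450 genes of a count table of mouse brain endothelial cells. All 50 were found in the table, 49 had enough counts to be tested among 19549 tested genes, and Gdf2 had no count in any library. The control group, with 3 libraries, came from mice carrying Cdh5(PAC)-CreERT2 and 1 floxed Rbpj allele (Rbpjflox/WT). The mutant group, also with 3 libraries, carried the same Cre with both Rbpj alleles floxed (Rbpjflox/flox). Cdh5(PAC)-CreERT2 is a tamoxifen-activated Cre recombinase expressed from the promoter of Cdh5, the vascular endothelial cadherin gene, and Rbpj encodes the transcription factor that binds DNA for the activated Notch receptors. Both groups held males and females on a mix of FVB/N and C57BL/6, each given 100 µg tamoxifen at postnatal day 1 and again at day 2. Brain cells positive for CD31 were collected on magnetic beads at postnatal day 7, although a separate time label reads P0. RNA was pooled over many mice per group and whether the libraries of each group were made from separate pools is not stated, so p-values measure the spread between libraries, which may be technical. The stated subject of the study is brain arteriovenous malformation after endothelial loss of Rbpj.

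Ligands of the TGF-beta family bind paired type I and type II receptors, and the type I receptor then phosphorylates SMAD proteins. TGF-beta and activin receptors act mainly through SMAD2 and SMAD3, BMP receptors through SMAD1, SMAD5 and SMAD9, and both branches share SMAD4. In endothelium the type I receptor ALK1 (gene Acvrl1) and the co-receptor endoglin (gene Eng) receive the circulating ligands BMP9 (gene Gdf2) and BMP10. Loss of Eng, Acvrl1 or Smad4 function causes hereditary haemorrhagic telangiectasia, a disease of arteriovenous malformations. ID genes and the inhibitory SMAD genes Smad6 and Smad7 are transcriptional targets of these receptors.

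Total counts ran from 75744913 to 82092461 per library, about 1.51 to 1.53 counts per valid read, and about 4 counts stand for 1 read pair. Rbpj was lower in each mutant library, at 47.9, 46.8 and 45.2 CPM (counts normalised to library size) against 54.3, 54.3 and 53.8 in control, a log2 fold change of -0.21 ± 0.042 (SE, edgeR quasi-likelihood test, adjusted p = 0.0129). Leaving out any 1 of control libraries 1 and 2 and mutant library 2 gave an adjusted p of 0.0510 to 0.0571, and counts per gene do not separate deleted from retained exons. All 14 endothelial markers were tested, with overlapping sums of 15290 to 15855 CPM in control libraries and 14742 to 15886 CPM in mutants. Of these markers 4 were higher and 5 lower at an adjusted p under 0.05. By the same threshold 7.56% of all tested genes were higher and 6.83% lower, and 9.98% of genes with at least 5 CPM were lower. Mutant library 3 lay apart on the second principal component, at -55.6 against 31.2 and 26.2 for the other mutant libraries. Markers of several other cell types were lower in the mutant libraries. Microglia markers were lower in 9 of 12 cases, with a summed level of 1735 to 1789 CPM in control libraries and 1368 to 1433 CPM in mutants. Fibroblast markers were lower in 5 of 12 (1022 to 1134 against 695 to 886 CPM) and erythroid markers in 5 of 7 (6974 to 7179 against 4665 to 4961 CPM). Choroid plexus markers were lower in 3 of 7 (5136 to 5586 against 3474 to 4519 CPM). Of the astrocyte markers 1 of 10 was lower, near the share of all genes, although their sum was 530.3 to 584.9 against 310.9 to 441.3 CPM. Pericyte and smooth muscle markers were higher in 4 and lower in 7 of 15, with sums of 4462 to 4581 and 4469.9 to 4559 CPM. Of 10 neuron markers 1 was lower, although their sum was 208 to 217 CPM in control libraries and 221 to 265 CPM in mutants. Among 8 lymphocyte and granulocyte markers 1 was higher, with sums of 54.8 to 67.3 against 68.1 to 89.6 CPM. Among 9 oligodendrocyte markers 2 were higher and 1 lower, with overlapping sums (48.5 to 51.3 against 46.5 to 60.4 CPM). No marker of these lists was at 0 in all libraries. In such bulk libraries, fewer cells of a type and less RNA per cell cannot be told apart. Microglia are known to express Tgfb1 and Tgfbr1 and fibroblasts Fstl1 and Bmp7; their part in the values of these genes was not tested.

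A gene was called when its adjusted p was under 0.05 over all 19549 genes. Of the 49 tested pathway genes, 17 were lower and 4 higher in the mutant libraries. The called share was 42.9%, against a background of 14.4% of all tested genes. The genes were chosen with earlier results of these data known, so such shares describe these genes and are not a test. The lower genes made up 34.7%, against 6.83% of all tested genes, and the higher genes numbered 4, against a background of 7.56%. Among genes with a mean of at least 5 CPM, 20 of 40 pathway genes (50.0%) were called, against 20.8% of all genes at that level, where 9.98% were lower. The median log2 fold change of the 49 genes was -0.18, against -0.01 over all tested genes. In 31 of the 49 the libraries of both groups did not overlap, 23 lower and 8 higher in the mutant, where 34.1% of all tested genes did not overlap and 17.3% were lower without overlap. Against a minimum change of 1.5-fold, Ltbp4 and Smad6 were lower and Smad1 was higher. Leaving out control library 1 or mutant library 2 reduced the lower genes to 10, and leaving out control library 2 reduced them to 11. The 12 genes called in every fit with 1 library left out were Ltbp4, Ltbp1, Id1, Id3, Smad1, Smad6, Smad7, Tgfb1, Tgfb2, Tgfb3, Tgfbr3 and Inhbb.

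**Figure D1:**
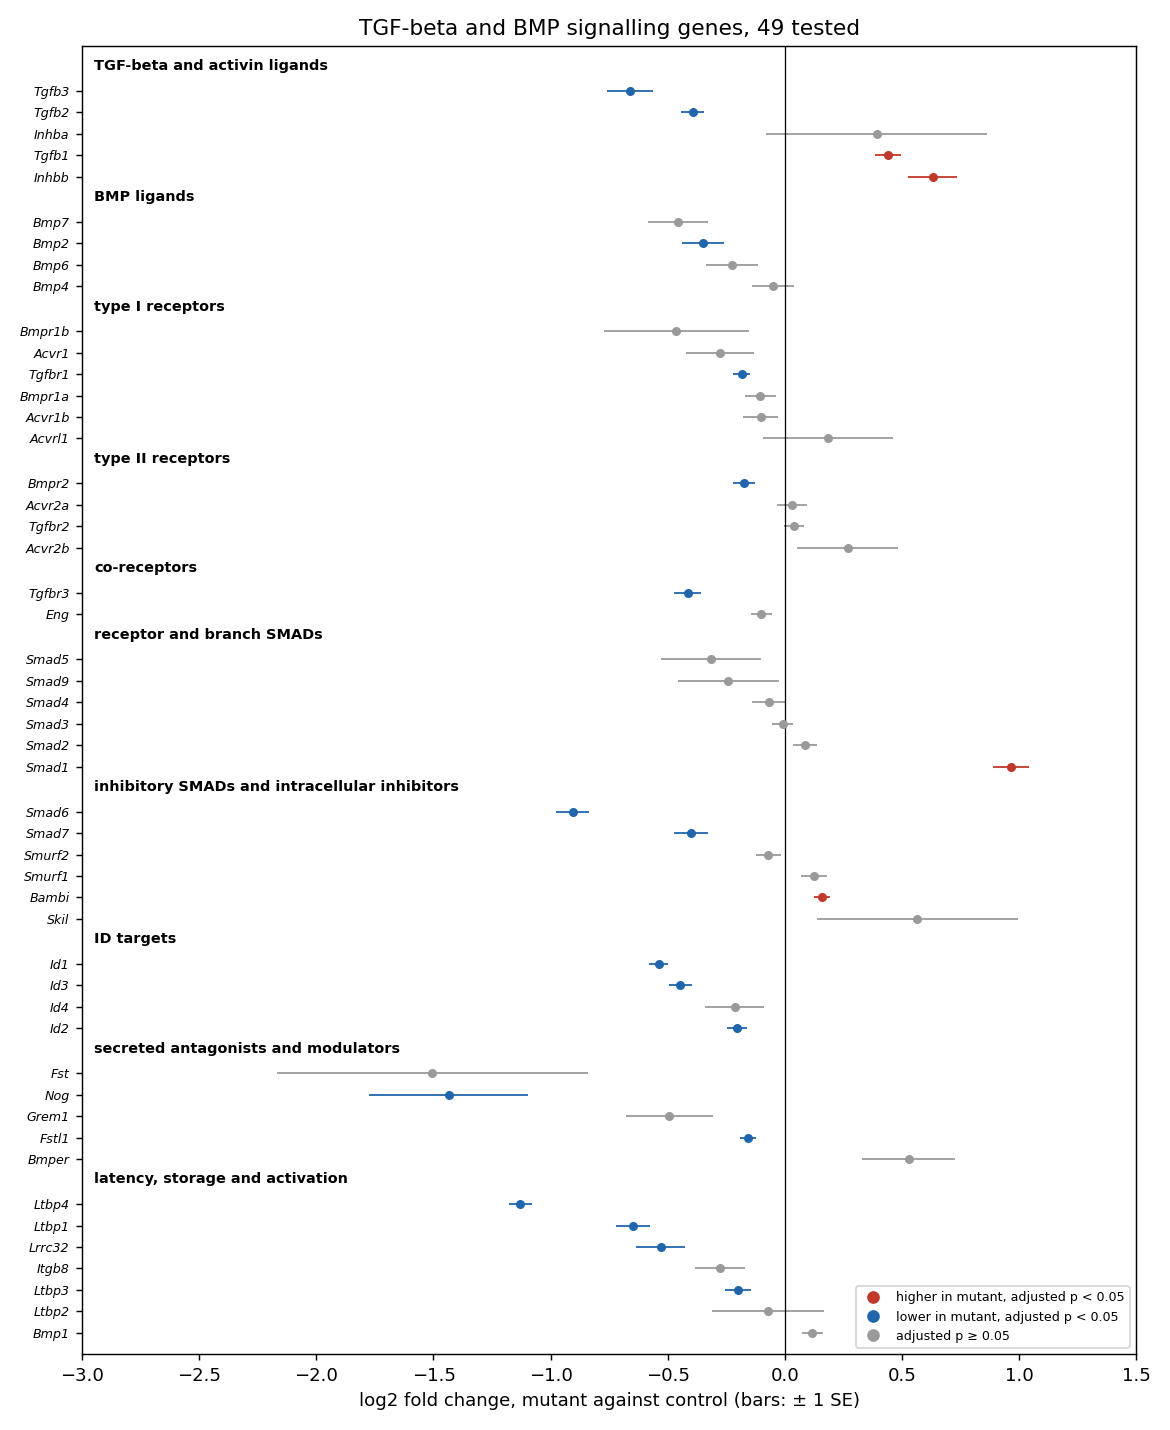
Log2 fold change of the 49 tested TGF-beta and BMP signalling genes, mutant against control, on the x axis, with genes grouped by role on the y axis and bars of 1 SE from the edgeR quasi-likelihood fit. Red and blue points are the 4 higher and 17 lower genes at an adjusted p under 0.05, and Ltbp4, Smad6 and Smad1 lie at -1.13, -0.91 and 0.96.

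Sequences at RefSeq transcription starts of 4 genes are shown. Ltbp4 was the largest called fall with at least 5 CPM and Smad1 the largest called rise. Smad6 and Id2 were taken from the called targets of BMP receptors. The sequences come from RefSeq windows on GRCm38.p6, minus strand, written 5′ to 3′ and limited to bases outside every annotated exon of GENCODE M21. For Ltbp4, which has several starts, the window with the most matches was taken; that of its outermost start held none of the motifs. The Smad6 and Smad1 stretches end just before the annotated gene. The Ltbp4 and Id2 stretches lie inside the gene as annotated by GENCODE (Id2 spans 25093799 to 25097140 on chromosome 12), downstream of its outermost start, and exonic bases separate that of Id2 from the RefSeq start it belongs to. Windows were found for 35 of the 50 genes. Capitals mark the letters GGCGCC, the core of a known BMP response element, which was searched on both strands together with GTGGGAA, a site bound by RBPJ, and GTCTG, a SMAD box.
Smad6 (chr9:64022060-64022309): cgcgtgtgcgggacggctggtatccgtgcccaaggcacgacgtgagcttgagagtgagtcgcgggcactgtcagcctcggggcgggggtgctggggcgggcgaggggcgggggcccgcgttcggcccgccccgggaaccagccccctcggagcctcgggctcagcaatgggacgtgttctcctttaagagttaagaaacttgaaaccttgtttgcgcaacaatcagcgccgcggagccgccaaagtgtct
Id2 (chr12:25096254-25096342): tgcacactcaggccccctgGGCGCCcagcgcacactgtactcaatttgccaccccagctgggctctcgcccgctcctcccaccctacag
Smad1 (chr8:79399519-79399678): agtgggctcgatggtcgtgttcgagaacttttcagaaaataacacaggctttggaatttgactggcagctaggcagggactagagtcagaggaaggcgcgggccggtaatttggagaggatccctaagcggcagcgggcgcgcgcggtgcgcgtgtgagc
Ltbp4 (chr7:27333664-27333913): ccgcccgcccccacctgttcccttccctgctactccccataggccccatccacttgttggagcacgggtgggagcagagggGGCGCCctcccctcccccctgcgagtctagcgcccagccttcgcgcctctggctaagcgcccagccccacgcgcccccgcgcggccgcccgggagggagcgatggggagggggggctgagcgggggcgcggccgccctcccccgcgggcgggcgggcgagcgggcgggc

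In the stretches printed, GGCGCC was found once each for Id2 and Ltbp4, and no letters of the other motifs were found. Id3, also a called target of BMP receptors, had a window that is not printed. Its 250 bases held GTCTG 2 times and did not hold GGCGCC. A gene was counted when any of its windows held the motif in the full 250 bases before the start. Genes with several starts thus had more chances to match. By this count 4 of the 10 lower genes with a window held GGCGCC. So did 6 of 21 genes that were tested but not called (28.6%) and 10.8% of all 27025 genes with a window. GTCTG was held by 5 of the 10 lower genes, 12 of the 21 uncalled genes and 45.8% of all genes. GTGGGAA was held by 1 of the 10 lower genes, Bmpr2, by 2 of the 21 uncalled genes and by 6.18% of all genes. None of the 3 higher genes with a window (Inhbb, Tgfb1 and Smad1) held any of the motifs. These are matches of letters and do not show binding.

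Ligand genes of the TGF-beta and activin group changed in both directions, with Tgfb1 and Inhbb higher and Tgfb2 and Tgfb3 lower. Tgfb1, on the plus strand of chromosome 7 (25687002 to 25705077, GRCm38), was at 181, 182 and 186 CPM in control libraries and 228, 256 and 261 CPM in mutants. All mutant libraries lay above all control libraries, with a log2 fold change of 0.44 ± 0.054 (edgeR adjusted p = 0.00155). Tgfb2 was at 79.1, 74.9 and 77.4 CPM in control libraries and 55.4, 60.3 and 60.3 CPM in mutants. It fell by 0.39 ± 0.048 on the log2 scale (edgeR adjusted p = 0.00143). Tgfb3 was at 20.9, 18.9 and 17.8 CPM in control libraries and 12.6, 13.0 and 10.8 CPM in mutants, a fall of 1.58-fold (log2 -0.66 ± 0.099, edgeR adjusted p = 0.00399). Both genes share exonic bases with antisense genes, and no source used here says if the counting took the strand into account.

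Because the isoform genes encode ligands of the same receptors, their levels were also compared per exonic kilobase. Tgfb1 made up 65.6% ± 1.09 (SD, n = 3) of the summed level of the 3 isoform genes in control and 78.2% ± 0.961 in mutant libraries. The share of Tgfb2 was 24.1% ± 0.418 and 16.1% ± 0.247, and that of Tgfb3 10.3% ± 0.801 and 5.72% ± 0.748. None of the 3 shares overlapped between the groups. Their summed level was 55.3 ± 0.550 CPM per kilobase in control and 63.0 ± 3.94 in mutant libraries.

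Inhbb encodes the beta B subunit of activin and inhibin. Its level was 4.43, 4.02 and 4.22 CPM in control libraries and 6.96, 6.23 and 6.45 CPM in mutants, without overlap. It rose 1.55-fold (log2 0.63 ± 0.105, edgeR adjusted p = 0.0065). Inhba, which encodes the beta A subunit, had only 16 to 43 counts per library and was not called (log2 0.39 ± 0.47, edgeR adjusted p = 0.672).

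Among the BMP ligand genes Bmp2 was the called member. It was at 19.4, 16.6 and 15.9 CPM in control libraries and 13.5, 14.0 and 13.2 CPM in mutants. Its log2 fold change was -0.35 ± 0.091 (edgeR adjusted p = 0.0429), and the adjusted p was 0.0843 to 0.118 in 5 of the fits with 1 library left out, all but that without control library 3, and 0.0552 with limma-voom. Bmp7 had 12.7 ± 0.739 CPM in control libraries and 9.26 ± 1.49 CPM in mutants (SD, n = 3), and narrowly missed the call (log2 -0.46 ± 0.128, edgeR adjusted p = 0.0557). Without mutant library 1 its adjusted p was 0.0403, and DESeq2 gave 0.0154. Bmp6, which liver endothelial cells are known to secrete, was at 23.5, 23.6 and 24.0 CPM in control libraries and 23.3, 20.5 and 16.9 CPM in mutants (adjusted p = 0.252). For Bmp4 the means were 7.82 and 7.55 CPM (adjusted p = 0.785). Gdf2 had 0 counts in all 6 libraries. With 3 read pairs, or 12 counts, as the limit that a count of 0 allows, this bounds its level at 0.146 to 0.162 CPM per library, for counting error only.

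Of the 12 receptor and co-receptor genes 3 were called, all lower, and the ALK1 and endoglin genes were not among them. Of all tested genes 14.4% were called and 6.83% were lower. Among genes with at least 5 CPM these shares were 20.8% and 9.98%. At that level 1 of 5 type I, 1 of 3 type II and 1 of 2 co-receptor genes were called. A share on so few genes is coarse. Eng had the highest level per length of all 50 genes, at 324 ± 15.4 CPM per kilobase in control libraries. Its CPM was 1254, 1306 and 1378 in control and 1206, 1185 and 1281 in mutant libraries, which overlap. The log2 fold change was -0.10 ± 0.046 (edgeR adjusted p = 0.216). It shares exonic bases with Fpgs, an antisense gene.

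Acvrl1 was at 244, 455 and 472 CPM in control libraries and 424, 458 and 448 CPM in mutants. Control library 1 was the low value, 1.93-fold below the highest control library, whereas the mutant libraries differed by 1.08-fold. The log2 fold change was 0.18 ± 0.278 (edgeR adjusted p = 0.756), and without control library 1 it was -0.06 (adjusted p = 0.560). This gene too overlaps an antisense gene. Skil, described with the inhibitors, was also low in control library 1.

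The other type I receptor genes include Tgfbr1, the TGF-beta receptor ALK5. It was at 99.7, 96.9 and 97.9 CPM in control libraries and 88.9, 85.8 and 84.7 CPM in mutants, with every mutant library lower. The fall was small (log2 -0.18 ± 0.036, edgeR adjusted p = 0.0137), and the adjusted p was 0.0701 without control library 1 and 0.0652 without mutant library 2. The BMP and activin type I receptor genes Bmpr1a (-0.10), Acvr1b (-0.10), Acvr1 (-0.28) and Bmpr1b (-0.46) had negative log2 fold changes and were not called (adjusted p from 0.299 to 0.448). Bmpr1b was detected at 0.918 to 2.45 CPM, the lowest of the receptor genes per length.

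Of the type II receptor genes, Bmpr2, the main BMP type II receptor, was called. It was at 329, 345 and 324 CPM in control libraries and 295, 279 and 309 CPM in mutants. Its log2 fold change of -0.18 ± 0.047 had an edgeR adjusted p of 0.0459, which was 0.0722 to 0.173 in 5 fits with 1 library left out, all but that without mutant library 3. It was not called with RLE size factors or limma-voom either. Tgfbr2, the TGF-beta type II receptor, was at 601, 607 and 600.3 CPM in control libraries and 608, 595 and 656 CPM in mutants, with overlap (0.04 ± 0.041, adjusted p = 0.619). The activin receptor genes Acvr2a (0.03) and Acvr2b (0.27) were not called either. Tgfbr3, which encodes the co-receptor betaglycan that presents TGF-beta to the type II receptor, was the receptor gene with the largest called change. Its values of 80.7, 78.6 and 70.4 CPM in control libraries and 59.1, 57.6 and 55.5 CPM in mutants did not overlap (log2 -0.41 ± 0.059, edgeR adjusted p = 0.00308).

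**Figure D2:**
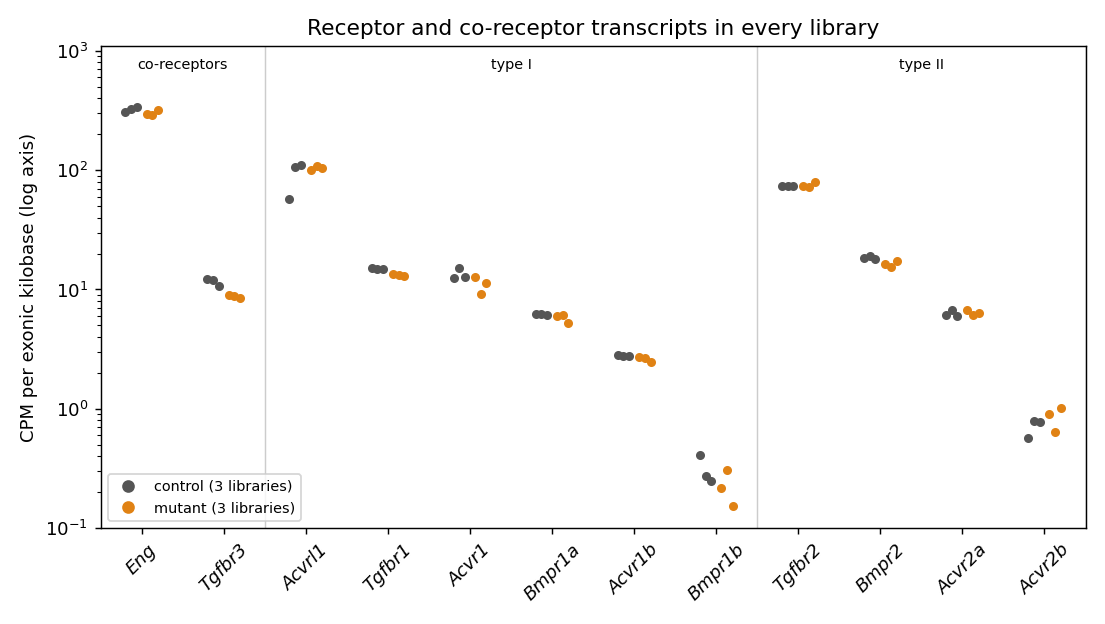
Level of each receptor and co-receptor gene in CPM per exonic kilobase (log y axis), with 1 point per library in control (grey) and mutant (orange). Eng lies highest at 324 CPM per kilobase in control, and control library 1 of Acvrl1 lies at 57.3 below all other Acvrl1 values.

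Per exonic kilobase the control means of the receptor genes ran from Eng at 324 through Acvrl1 at 91.5 ± 29.7, Tgfbr2 at 73.6 ± 0.453, Bmpr2 at 18.5 ± 0.617, Tgfbr1 at 15.0 ± 0.219, Acvr1 at 13.4 ± 1.52 and Tgfbr3 at 11.7 ± 0.830. Below these came Acvr2a at 6.27 ± 0.400, Bmpr1a at 6.20 ± 0.081, Acvr1b at 2.80 ± 0.029, Acvr2b at 0.711 ± 0.121 and Bmpr1b at 0.311 ± 0.087 (SD, n = 3). Neighbours whose control libraries overlapped were Acvrl1 with Tgfbr2, Tgfbr1 with Acvr1, and Acvr2a with Bmpr1a. The lengths are unions of all annotated exons, so a gene with a long rarely used exon is given too low a level.

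The SMAD genes that carry the signal were not called, with the exception of Smad1. Smad1, on the minus strand of chromosome 8 (79338395 to 79399518), was at 72.1, 66.2 and 80.6 CPM in control libraries and 149, 144 and 135 CPM in mutants. Every mutant library lay above every control library, and the gene rose 1.95-fold (log2 0.96 ± 0.076, edgeR adjusted p = 0.000218). Smad5, which acts in the same branch, was at 169.7, 150.4 and 134 CPM in control libraries and 158, 107 and 99.8 CPM in mutants. The groups overlapped (log2 -0.32 ± 0.213, adjusted p = 0.437), and without mutant library 1 the log2 fold change was -0.55 (adjusted p = 0.0317). Smad9, the least abundant member of the branch, had 1.77 ± 0.112 and 1.496 ± 0.367 CPM (adjusted p = 0.553).

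Within this branch the transcript mix differed between the groups. Smad1 made up 33.1%, 33.9% and 41.3% of the level of Smad1, Smad5 and Smad9 per kilobase in control libraries and 52.5%, 60.9% and 61.1% in mutant libraries. Smad5 was the most abundant of the 3 in each control library and Smad1 in each mutant library. The summed level of the branch was 32.4 ± 2.05 CPM per kilobase in control and 39.4 ± 5.28 in mutant libraries (SD, n = 3).

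Smad2 and Smad3 of the TGF-beta branch had log2 fold changes of 0.09 ± 0.052 and -0.01 ± 0.045 (adjusted p = 0.356 and 0.931). Smad4, the partner of both branches, was at 120.6, 102 and 99.7 CPM in control libraries and 102, 104 and 102 CPM in mutants. Its log2 fold change was -0.07 ± 0.072 (edgeR adjusted p = 0.621) and had the opposite sign, 0.03, without control library 1.

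**Figure D3:**
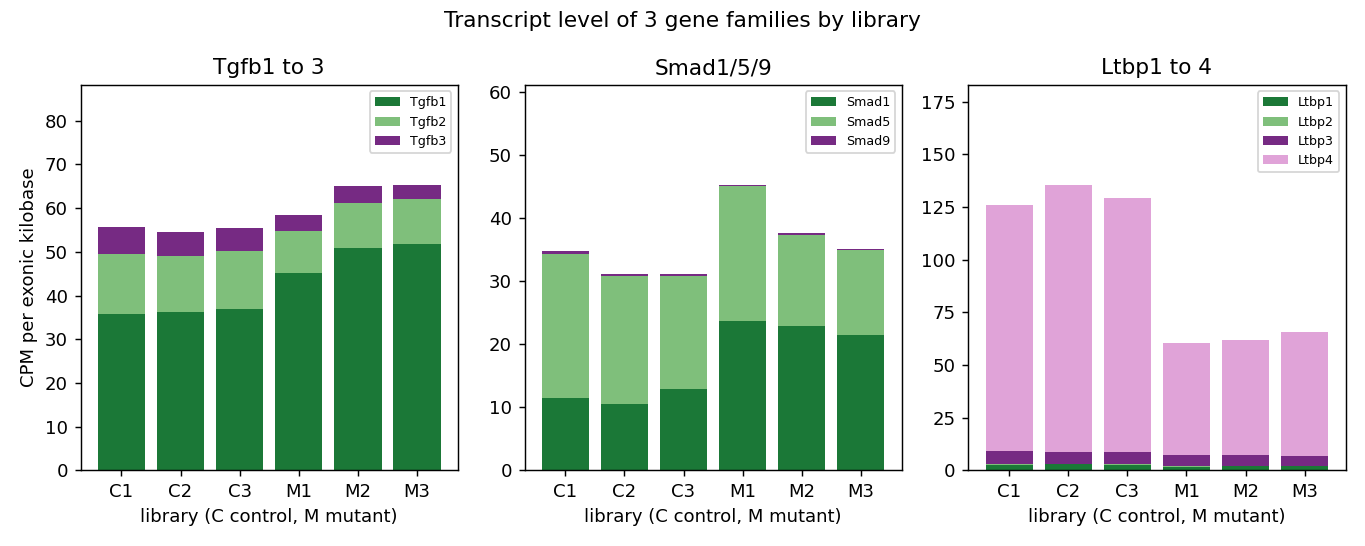
Level in CPM per exonic kilobase (y axis) of the Tgfb, Smad1/5/9 and Ltbp genes in each control (C1 to C3) and mutant (M1 to M3) library, stacked by gene. The Smad1 part rises from 33.1% to 41.3% of the stack in control to 52.5% to 61.1% in mutant libraries, and the Ltbp stack falls from a mean of 130.3 to 62.6.

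The inhibitory SMAD genes fell while Smad1 rose. Smad6, which preferentially blocks BMP receptors, was at 28.5, 25.8 and 27.7 CPM in control libraries and 13.7, 14.9 and 15.1 CPM in mutants. The groups did not overlap, and control exceeded mutant 1.87-fold (log2 -0.91 ± 0.072, edgeR adjusted p = 0.000187). Smad7, which blocks TGF-beta as well as BMP receptors, was at 52.6, 49.9 and 52.0 CPM in control libraries and 34.9, 39.7 and 42.4 CPM in mutants, again without overlap (log2 -0.40 ± 0.074, edgeR adjusted p = 0.0101).

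The other intracellular and membrane inhibitors were not called lower. Bambi, which encodes a pseudoreceptor without kinase activity, was at 104.7, 105 and 109 CPM in control libraries and 120.2, 117 and 119 CPM in mutants. It was called higher by a small amount (log2 0.16 ± 0.034, edgeR adjusted p = 0.0213), and the adjusted p was 0.0529 to 0.0816 without any 1 of control libraries 1 and 2 and mutant libraries 1 and 2. The ubiquitin ligase genes Smurf1 (0.12 ± 0.057) and Smurf2 (-0.07 ± 0.053) were not called (adjusted p = 0.216 and 0.470). Skil, which encodes the SMAD repressor SnoN, was at 33.6, 89.9 and 91.5 CPM in control libraries and 93.8, 111 and 114 CPM in mutants. All mutant libraries exceeded all control libraries, but control library 1 was 2.72-fold below the highest control library and the adjusted p was 0.499, or 0.185 without that library (log2 0.23).

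ID genes, which encode inhibitors of basic helix-loop-helix transcription factors and are direct targets of BMP receptors, were lower in 3 of 4 cases. Of all tested genes 6.83% were lower, and of genes with at least 5 CPM 9.98%. Id1, on the plus strand of chromosome 2 (152736251 to 152737410), was at 205, 202 and 208 CPM in control libraries and 145, 143 and 135 CPM in mutants. Control exceeded mutant 1.45-fold (log2 -0.54 ± 0.039, edgeR adjusted p = 0.000127). Id3 was at 167, 160.4 and 180.1 CPM in control libraries and 128, 123 and 122 CPM in mutants (log2 -0.45 ± 0.049, edgeR adjusted p = 0.000932). In both genes every mutant library lay below every control library.

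Id2 fell less, from 52.0, 50.2 and 52.0 CPM to 45.0, 44.9 and 44.0 CPM (log2 -0.20 ± 0.041, edgeR adjusted p = 0.0153). Its adjusted p was 0.0510 to 0.0712 without any 1 of control libraries 1 and 3 and mutant library 2. Id4, the least abundant ID gene, was at 10.6, 9.77 and 8.51 CPM in control libraries and 8.90, 8.82 and 7.17 CPM in mutants, with overlap (adjusted p = 0.344). The summed level of the 4 ID genes was 294.6 ± 8.60 CPM per kilobase in control and 211.3 ± 6.80 in mutant libraries. Id1 made up 60.0% ± 0.788 of it in control and 57.5% ± 0.545 in mutant libraries, and Id3 made up 32.0% ± 0.979 and 32.8% ± 0.514.

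**Figure D4:**
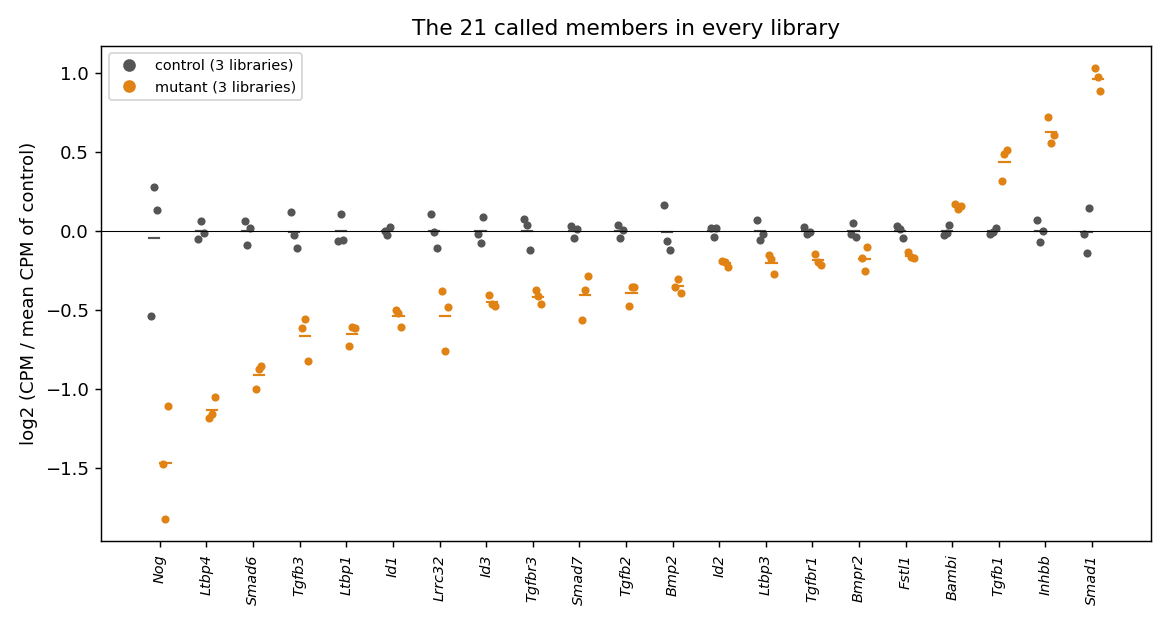
Level of the 21 called genes in each library as log2 of CPM over the control mean (y axis), ordered by log2 fold change (x axis), with control in grey, mutant in orange and horizontal marks at the group means of the log2 values. In each gene the 3 mutant points lie on 1 side of the 3 control points, from Nog at -1.44 to Smad1 at 0.96.

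Of 7 genes for latency, storage and activation of TGF-beta 4 were lower, against 6.83% of all tested genes and 9.98% of those with at least 5 CPM. Among the 4 was Ltbp4, the largest called fall of the pathway genes with at least 5 CPM. TGF-beta is secreted bound to its propeptide, and latent TGF-beta binding proteins (LTBP) tether that complex to the matrix. Ltbp4, on the minus strand of chromosome 7 (27305136 to 27337692), was at 756, 818 and 779 CPM in control libraries and 345, 352 and 379.6 CPM in mutants. Each mutant library was below each control library, and control exceeded mutant 2.19-fold (log2 -1.13 ± 0.048, edgeR adjusted p = 1.4e-05). Ltbp1 was at 28.1, 31.6 and 28.2 CPM in control libraries and 17.7, 19.2 and 19.1 CPM in mutants, 1.57-fold higher in control (log2 -0.65 ± 0.072, edgeR adjusted p = 0.00095).

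Ltbp3 was the third called LTBP gene, at 56.8, 52.0 and 53.4 CPM in control libraries and 48.6, 47.7 and 44.7 CPM in mutants. Its log2 fold change of -0.20 ± 0.054 was just past the threshold (edgeR adjusted p = 0.0481), and the adjusted p was 0.0745 to 0.163 in all 6 fits that left out a library and 0.0514 to 0.0776 under 6 of the 9 other alternatives. Ltbp2, unlike the others a protein that does not bind latent TGF-beta, had 1.504 and 1.43 CPM and was not called (adjusted p = 0.893). Ltbp4 accounted for 93.2% ± 0.315 of the LTBP level per kilobase in control and 88.6% ± 0.798 in mutant libraries, and the summed level was 130.3 ± 4.799 and 62.6 ± 2.65 CPM per kilobase (SD, n = 3).

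Fibroblasts are known to express LTBP genes as well, and the summed fibroblast markers were at 1022 to 1134 CPM in control libraries and 695 to 886 CPM in mutants. Their part in the LTBP result was not tested.

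Lrrc32 encodes GARP, which holds latent TGF-beta on the cell surface. It was at 70.7, 65.3 and 61.0 CPM in control libraries and 50.4, 38.9 and 47.0 CPM in mutants, without overlap. Its log2 fold change was -0.53 ± 0.104 (edgeR adjusted p = 0.0171), with an adjusted p of 0.0615 to 0.0651 without any 1 of control libraries 1 and 2 and mutant library 3. Itgb8, whose integrin subunit takes part in releasing TGF-beta from its latent complex, had means of 6.44 and 5.31 CPM (log2 -0.28 ± 0.109, adjusted p = 0.1497). Bmp1, a metalloprotease despite its name, that cleaves matrix proteins and LTBP, had means of 99.6 and 108 CPM (log2 0.12 ± 0.045, adjusted p = 0.143).

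Secreted antagonists were mostly of low abundance. Noggin (Nog), which binds BMP ligands, was at 0.720, 1.27 and 1.15 CPM in control libraries and 0.377, 0.296 and 0.486 CPM in mutants, or 23 to 104 counts. The log2 fold change was -1.44 ± 0.340 (edgeR adjusted p = 0.0298), and the adjusted p was 0.0531 with limma-voom and 0.0823 to 0.108 without any 1 of control libraries 2 and 3 and mutant libraries 1 and 2. Fstl1, a follistatin-like glycoprotein, was at 322, 318 and 306 CPM in control libraries and 288, 281 and 279.8 CPM in mutants. This was a small fall (log2 -0.16 ± 0.033, edgeR adjusted p = 0.0195), with an adjusted p of 0.0854 to 0.0973 without any 1 of control libraries 1 and 2 and mutant library 2. Gremlin (Grem1, -0.49 ± 0.187) and Bmper, an extracellular BMP modulator (0.53 ± 0.199), had means of 1.22 to 2.16 CPM across the groups and were not called (adjusted p = 0.138 and 0.135). Follistatin (Fst) had 4 to 27 counts per library, or few read pairs, and its difference was not detectable at this depth (adjusted p = 0.199).

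A further list of 75 names of the pathway, holding other ligands, receptors, antagonists, regulators and targets, gave 56 tested genes, of which 6 were higher and 13 lower (33.9% called, against 14.4% of all tested genes, 7.56% higher and 6.83% lower). This list too was chosen with earlier results of these data known. The lower genes numbered 8 once control library 1 was left out. Of 12 secreted antagonists and modulators 7 were called lower, and 10 of the 12 were lower in every mutant library than in every control library, as were 17.3% of all tested genes. Of the tested target genes 3 of 9 were higher and 3 lower. Of the intracellular regulators 1 of 16 was called (6.25%), below the background of 14.4%.

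The targets in this list split by direction. Tgfbi, named for its induction by TGF-beta, was at 25.9, 22.2 and 25.1 CPM in control libraries and 45.8, 45.5 and 40.7 CPM in mutants (log2 0.85 ± 0.078, edgeR adjusted p = 0.00038). It was higher in each mutant library.

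Tmem100 and Atoh8, known endothelial targets of ALK1 and BMP signalling, went the other way. Tmem100 was at 21.5, 23.6 and 26.3 CPM in control libraries and 12.2, 12.6 and 13.7 CPM in mutants (log2 -0.89 ± 0.092, edgeR adjusted p = 0.000676). Atoh8 was at 8.82, 9.00 and 9.77 CPM and 6.62, 6.16 and 5.09 CPM (log2 -0.63 ± 0.121, edgeR adjusted p = 0.0129). Cdkn2b, a cell cycle inhibitor gene that TGF-beta induces in epithelial cells, was at 25.9, 25.5 and 25.8 CPM in control libraries and 9.21, 9.90 and 9.65 CPM in mutants. Unlike Tgfbi, it was lower in each mutant library (log2 -1.42 ± 0.064, edgeR adjusted p = 1.62e-05).

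Nodal, a ligand that signals through activin receptors, was at 4.31, 3.88 and 3.49 CPM in control libraries and 12.5, 12.2 and 12.1 CPM in mutants, the largest called change of the list (log2 1.65 ± 0.106, edgeR adjusted p = 7.12e-05). The antagonist gene Sostdc1 fell from a mean of 29.1 to 16.4 CPM (log2 -0.83 ± 0.066, edgeR adjusted p = 0.000194). Fstl3, which binds activins and overlaps an antisense gene, had 2.00 and 0.967 CPM (log2 -1.05 ± 0.237, adjusted p = 0.0248), and 0.0511 to 0.0918 without any 1 of control libraries 1 and 2 and mutant libraries 2 and 3. Gdf15 had 4.89 and 3.05 CPM (log2 -0.68 ± 0.134, adjusted p = 0.0138), and 0.0530 to 0.0561 without control library 1 or control library 3. Tll1, a protease related to Bmp1, had 8.48 and 5.83 CPM (log2 -0.54 ± 0.114, adjusted p = 0.0182), and 0.0509 to 0.0684 without any 1 of control libraries 1 and 3 and mutant libraries 1 and 2.

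**Figure D5:**
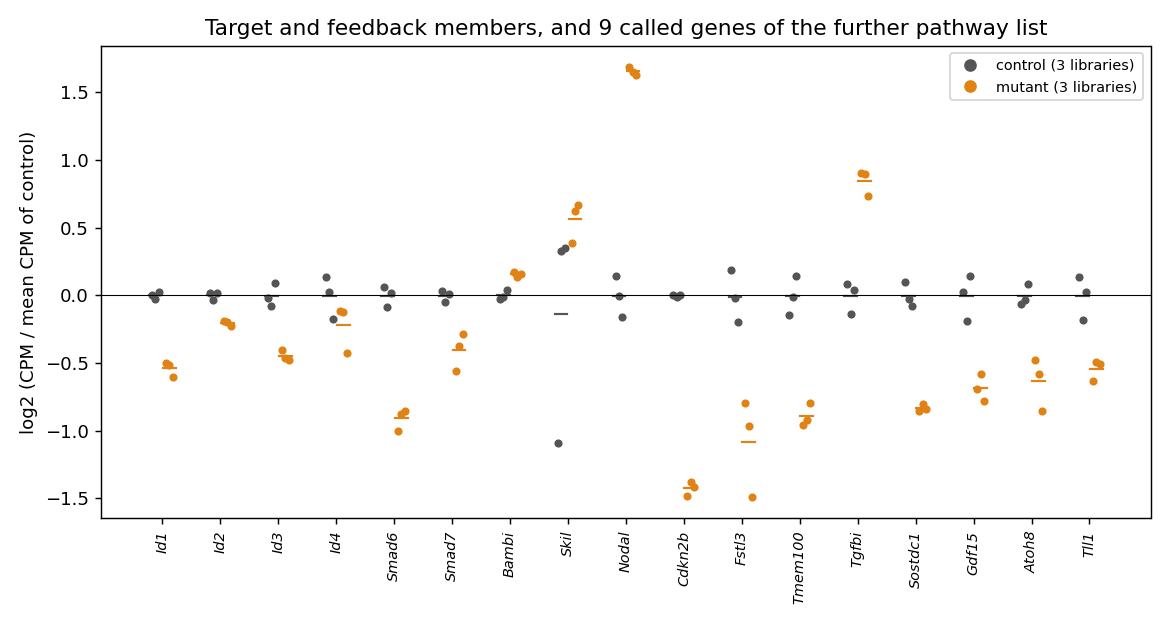
Level in each library, as log2 of CPM over the control mean (y axis), of the ID genes, Smad6, Smad7, Bambi and Skil, followed by 9 called genes of the further pathway list (x axis), with control in grey, mutant in orange and horizontal marks at group means of the log2 values. Id1, Smad6, Tmem100 and Cdkn2b lie below control at -0.54, -0.91, -0.89 and -1.42, and Tgfbi and Nodal lie above it at 0.85 and 1.65.

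The 50 genes lie on 17 chromosomes. An exon of 12 of them overlaps an antisense gene, among these 3 of the 21 called genes (Tgfb2, Tgfb3 and Ltbp3), and an exon of 3 overlaps a gene on the same strand, among these the called gene Tgfbr3. Values of such genes are less certain, since reads of overlapping genes cannot always be separated.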

How the data were processed

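The authors deposited estimated counts per gene, whole numbers that are not normalized, for 3 control and 3 mutant libraries, and a table with the count of valid reads per library, per the file headers. Per the submitters' processing notes, the tools were HISAT2 with StringTie 1.3.4, edgeR, FastQC 0.10.1 and cutadapt 1.10, on GRCm39; no source used here gives their settings or the annotation. Each of the 55450 gene identifiers matched GENCODE M21 (GRCm38), which supplied symbols, coordinates and exonic lengths. Low counts pile up at multiples of 4 (1118 to 1190 genes per library had a count of 4, and 171 to 189 a count of 5), so precision follows read pairs rather than counts.

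Counts were used as deposited, because the values were already whole; raw counts had been assumed when the test was chosen. Genes were filtered with filterByExpr, scaled by TMM (factors 0.978 to 1.009) and compared with the edgeR 4.0.16 quasi-likelihood F test with robust fitting (R 4.3.3) on a design holding the group alone, with Benjamini-Hochberg adjustment over 19549 genes. The SE is the log2 fold change over the square root of F. CPM were computed from the counts with TMM scaling, and per kilobase of the union of exons. The test was checked on simulated data. Within each group the libraries differed beyond sampling noise (median chi-square 1.81 to 2.62 times its expectation), so none was merged. Replicate numbers are shared by both groups, but deviations of same-numbered libraries did not correlate (r from -0.02 to 0.03), so they were not used as pairs.

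The genes, their roles and the further lists were chosen with earlier results of these data known. Named genes are the 50 pathway genes, the 10 called genes with the largest changes of the further list, of which 1 is not reported here, and Rbpj. Of that list Hjv and Ctgf (now Ccn2, also listed) matched no symbol. Alternatives were other size factors, filters, DESeq2 1.42.0, limma-voom 3.58.1, counts divided by 4, a minimum change of 1.5-fold, the replicate block and each library left out.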

Additional observations from a re-analysis of the deposited data

How the results depend on the processing

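The count of higher and lower pathway genes was 4 and 17. Across RLE size factors, library size only, no filter, the stricter filter, DESeq2, limma-voom and counts divided by 4 it stayed at 4 higher and ran from 13 to 18 lower. With the replicate block it was 3 and 11, and the block took the call from 7 of the 21 called genes; the replicate numbers are not shown to pair libraries, and 1 of 3 control libraries correlated best with the mutant library of its own number. Tested against a 1.5-fold change it was 1 and 2, with 2 and 2 for the further pathway list and 202 and 89 for all genes. With 1 library left out, lower pathway genes ran from 10 to 15, lower genes of the further list from 8 to 11 and the count of all genes lower in mutant libraries from 807 to 1125, with fewer samples in each fit.

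No called pathway gene changed direction under any of these alternatives. Uncalled genes near 0 did: with 1 library left out the log2 fold change ran from -0.057 to 0.34 for Acvrl1, -0.0095 to 0.092 for Acvr2a, -0.042 to 0.026 for Smad3, -0.12 to 0.028 for Smad4 and -0.21 to 0.087 for Ltbp2, and Smad3 was at 0.0018 with counts divided by 4. The cause was not tested. Inhba, Fst and Nog had too few counts for the stricter filter, Inhba and Fst also for counts divided by 4, and DESeq2 gave Fst no adjusted p. Depth limits these 3 genes, with 4 to 104 counts per library.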
